A study of Homo sapiens with 8 samples.

Results

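The genes of DNA replication and S phase were followed in 8 RNA-seq libraries of SUDHL-4, a human cell line grown from a germinal-centre-type diffuse large B-cell lymphoma. They are 44 genes chosen by symbol for their place in replication, with earlier results of these data known. All 44 were found among the 15597 genes in the files. The control cells were of wild-type genotype and the others overexpressed FDX1 (FDX1-OE), the gene of mitochondrial ferredoxin. Each genotype was grown for 48 h in DMSO, the solvent, or in 5 nM elesclomol (ES), a compound that carries copper into cells. This gave 4 groups of 2 libraries: control DMSO, control ES, FDX1-OE DMSO and FDX1-OE ES. The labels do not say what vector the controls carry, whether the FDX1-OE cells are a clone, or whether replicates were separate cultures, so that p-values measure only the spread between these libraries, which may be technical.

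A chromosome is copied once in each cell cycle. In G1 the origin recognition complex, CDC6 and CDT1 load the ring-shaped MCM helicase onto origins. At the start of S phase CDC45 and the GINS complex join the ring, which then unwinds DNA. Primase and DNA polymerase alpha lay short primers, the RFC clamp loader opens PCNA, the sliding clamp, polymerases delta and epsilon extend the strands, and FEN1 and DNA ligase I finish the lagging strand. Ribonucleotide reductase, thymidylate synthase and thymidine kinase supply nucleotides. E2F transcription factors drive many of these genes, and cyclin E with CDK2 promotes S phase entry. Rapidly dividing lymphoma cells express the whole set.

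FDX1, which checks the labels, was at 25.6 and 22.2 FPKM in control DMSO, 21.3 and 21.4 in control ES, 72.4 and 69.9 in FDX1-OE DMSO, and 82.5 and 84.8 in FDX1-OE ES. The 4 FDX1-OE libraries lay above the 4 control libraries. FPKM is a level divided by gene length and by the reads of the library. The 8 libraries held 33387958 to 35833270 reads in the listed genes. All 8 B-cell markers were present, with summed levels of 1442.5 to 1548.6 FPKM over the DMSO libraries and 1738.0 to 1793.5 over the ES libraries. CD3D, CD3G, NKG7 and KLRD1 of the 5 T and NK cell markers in the files, CD14, LYZ, CSF1R and ITGAM of 6 myeloid markers, and 6 of 8 epithelial and stromal markers were below 1 FPKM in every library. The myeloid sum nevertheless moved with ES, from 4.0 to 4.3 FPKM in control DMSO to 12.3 to 16.5 in control ES, and from 7.1 to 8.2 in FDX1-OE DMSO to 36.7 to 39.7 in FDX1-OE ES, through CD68 and FCER1G. The sums of the T and NK markers were 4.1 to 7.2 FPKM over the DMSO libraries and 7.1 to 8.5 over the ES libraries, and those of the epithelial and stromal markers 12.4 to 15.8 and 9.9 to 13.0. The part of these markers in the results below was not tested.

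Promoters of the genes are shown because E2F control is a textbook feature of this set. RefSeq promoters of the build GRCh38.p14, each running from 250 bases before to 50 bases after the annotated start, were matched for 39 of the 44 genes. MCM4, MCM5, GINS4, CCNE2 and E2F8 had no entry. The letters searched, on both strands, were TTTCGCGC, TTTGGCGC, TTTCCCGC and TTTGCCGC for E2F, CCAAT for NF-Y and TTTGAA for CHR, an element of mitotic promoters. TTTGGCGC on one strand can overlap TTTCGCGC on the other, as it does in MCM6, and overlapping matches were counted once. At least 1 E2F word stood in 20 of the 39 promoters (51.3%), against 6.09% of the 8079 promoters of genes tested and 3.31% of all 35116 promoters in the table. CCAAT stood in 21 of 39 (53.8%), against 38.5% of the promoters of genes tested, 34.6% of all promoters and 19 of 24 promoters of mitosis genes (79.2%). TTTGAA stood in 1 of 39 (2.56%), that of RRM1, against 9.72% of the promoters of genes tested, 15.2% of all promoters and 18 of 24 promoters of mitosis genes (75%). The promoters below are those of E2F1 and TYMS, the genes with the largest called rises under ES in FDX1-OE cells among those with an E2F word, and of RFC3, the gene with the largest called fall there. Capitals mark the matches to E2F and NF-Y letters on either strand, and each sequence is the 250 bases before the start, 5′ to 3′ on the gene's strand. E2F1 (chr20:33686386-33686635, minus strand) holds 2 E2F words, which begin 33 and 20 bases before the start, and 3 CCAAT words. TYMS (chr18:657403-657652, plus strand) and RFC3 (chr13:33817899-33818148, plus strand) each hold the same E2F word, read on the other strand, 39 and 55 bases before the start.
E2F1: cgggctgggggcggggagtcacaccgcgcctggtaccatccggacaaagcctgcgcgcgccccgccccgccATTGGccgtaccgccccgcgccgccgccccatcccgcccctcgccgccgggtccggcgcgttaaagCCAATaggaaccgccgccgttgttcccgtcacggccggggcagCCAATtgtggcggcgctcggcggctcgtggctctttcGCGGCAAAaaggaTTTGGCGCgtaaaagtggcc
TYMS: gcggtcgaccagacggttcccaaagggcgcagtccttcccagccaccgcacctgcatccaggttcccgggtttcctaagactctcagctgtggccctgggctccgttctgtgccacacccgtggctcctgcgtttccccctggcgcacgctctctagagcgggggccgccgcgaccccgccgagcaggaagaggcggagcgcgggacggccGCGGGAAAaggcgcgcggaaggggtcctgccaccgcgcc
RFC3: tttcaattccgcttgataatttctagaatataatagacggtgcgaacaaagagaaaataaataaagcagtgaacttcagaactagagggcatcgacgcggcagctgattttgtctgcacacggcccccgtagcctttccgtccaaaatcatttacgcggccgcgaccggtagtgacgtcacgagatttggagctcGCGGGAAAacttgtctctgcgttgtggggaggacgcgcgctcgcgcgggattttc

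Every gene of the set was well expressed. The lowest value was 4.22 FPKM, for the primase subunit PRIM2, and the highest 413 FPKM, for the helicase subunit MCM7. Between 1031 and 42283 reads stood behind each value, and counting error alone was at most 3.11% of it. All 44 genes passed the filter for testing (at least 1 FPKM in at least 2 libraries), as did 9805 genes in all. Changes below are differences of log2(FPKM + 1) between group means, and genes with an adjusted p below 0.05, over all genes tested, were taken as called.

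With ES, most replication genes were at higher levels in both genotypes. In control cells 27 of 44 genes rose, beside 25.5% of all genes tested, and 1 fell, beside 12.9% (18 rose when control DMSO replicate 2 was left out). In FDX1-OE cells 27 rose, beside 37.0% of all genes, and 3 fell, beside 19.2%. The median log2 change of the 44 genes was 0.25 in control cells and 0.24 in FDX1-OE cells, where that of all genes tested was 0.063 and 0.094. The rises were mostly small: only CCNE2 passed a log2 change of 1 in either genotype. All 4 ES libraries lay above all 4 DMSO libraries for 30 of the 44 genes (32.5% of all genes tested) and below them for 3 (16.7%), FEN1, MCM6 and RFC3. In bulk RNA, more cells in S phase and more RNA of these genes per cell cannot be told apart.

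The size of these counts depended on scaling. FPKM divides by the library total, whereas median-ratio scaling (RLE) divides by the typical ratio of a library's genes to their mean over libraries. RLE moved the median change of all genes from 0.063 to -0.013 in control cells and from 0.094 to -0.031 in FDX1-OE cells. On that scale 18 of the 44 genes rose in control cells (17.3% of all genes) and 4 fell (21.7%). In FDX1-OE cells 16 rose (24.3%) and 9 fell (31.7%). The median change of the 44 genes was 0.16 and 0.099. On either scale 35 of the 44 genes lay above the median of all genes in control cells, and 32 in FDX1-OE cells. The counts of single steps below are small, and these shares of all genes are the background for them too. Genes that rose in both genotypes by both scalings numbered 14: CCNE1, CCNE2, CDC45, E2F1, E2F8, MCM7, ORC6, PCNA, PRIM1, RFC4, RRM1, RRM2, TK1 and TYMS.

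**Figure D1:**
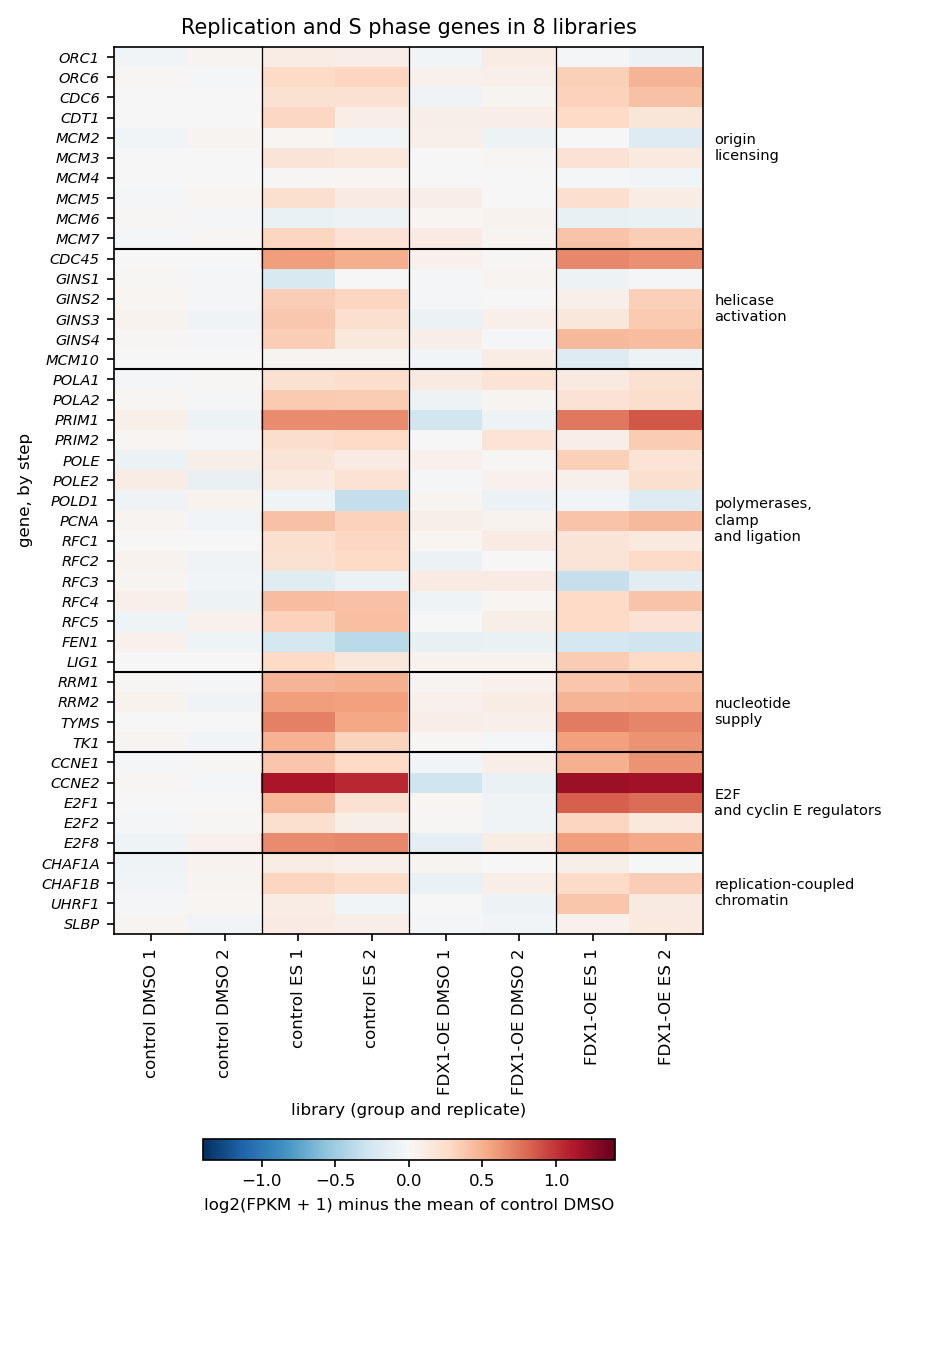
Log2(FPKM + 1) of each of the 44 genes (rows, by step) in each of the 8 libraries (columns), as the difference from the mean of the 2 control DMSO libraries. The 4 ES columns are mostly red on FPKM, CCNE2 most of all, and the rows of FEN1, MCM6 and RFC3 are blue there on FPKM, whereas both FDX1-OE DMSO columns stay pale.

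The regulators that begin S phase held the largest single change of the set. Of 5 E2F and cyclin E genes, 4 rose in control cells and 5 in FDX1-OE cells (4 and 4 by RLE, which lost E2F2 in FDX1-OE cells). CCNE2, the cyclin E2 partner of CDK2, was at 9.83 and 9.53 FPKM in control DMSO, 22.6 and 21.2 in control ES, 7.77 and 9.0 in FDX1-OE DMSO, and 23.6 and 23.1 in FDX1-OE ES. Its level more than doubled in both genotypes, with no overlap between ES and DMSO libraries (log2 change 1.10, SE 0.073, adjusted p = 4.69e-06 in control cells, and log2 change 1.38, SE 0.073, adjusted p = 3.76e-07 in FDX1-OE cells). CCNE2 shares 47.5% of its exon bases with INTS8 on the opposite strand (GENCODE v29, GRCh38), and the counting is not stated to use strand, so that reads of the pair cannot be told apart. INTS8 lay between 10.6 and 12.3 FPKM over the 8 libraries and passed with ES in neither genotype (log2 change -0.036, adjusted p = 0.69, and -0.13, adjusted p = 0.118). CCNE1, the other E-type cyclin, moved less. It was at 19.6 and 20.1 FPKM in control DMSO, 26.4 and 24.3 in control ES, 19.2 and 21.2 in FDX1-OE DMSO, and 28.3 and 31.1 in FDX1-OE ES (log2 change 0.34, SE 0.071, adjusted p = 0.00427 in control cells, and 0.54, SE 0.071, adjusted p = 0.000118 in FDX1-OE cells). Per gene length, CCNE2 was thus at 0.488 ± 0.018 of the CCNE1 level in control DMSO and 0.867 ± 0.011 in control ES, and at 0.414 ± 0.015 and 0.787 ± 0.062 in FDX1-OE cells (SD, n = 2 each). This and the other ratios below were chosen after the values were seen.

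E2F1, the founding activator of the E2F family, was at 75.5 and 76.5 FPKM in control DMSO, 106 and 88.6 in control ES, 77.3 and 73.4 in FDX1-OE DMSO, and 137 and 131 in FDX1-OE ES. The 2 FDX1-OE ES libraries lay above both control ES libraries, which in turn lay above all DMSO libraries. E2F1 rose in control cells (log2 change 0.34, SE 0.073, adjusted p = 0.00459) and in FDX1-OE cells (log2 change 0.82, SE 0.073, adjusted p = 9.1e-06). E2F2, a related activator, rose in FDX1-OE cells (log2 change 0.24, SE 0.069, adjusted p = 0.0121) and not by RLE (0.10, adjusted p = 0.237), and in control cells its change was 0.15 (adjusted p = 0.101). E2F8, a repressor of the family, was at 9.62 and 10.6 FPKM in control DMSO, 16.5 and 16.7 in control ES, 9.09 and 10.9 in FDX1-OE DMSO, and 15.7 and 15 in FDX1-OE ES. All 4 ES libraries, at 15.0 to 16.7 FPKM, lay above every DMSO library (log2 change 0.67, SE 0.083, adjusted p = 0.000245 in control cells, log2 change 0.57, SE 0.083, adjusted p = 0.000215 in FDX1-OE cells).

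Nucleotide supply was the only one of the 6 steps in which every gene rose in both genotypes by both scalings. TYMS, thymidylate synthase, was at 131 and 130.3 FPKM in control DMSO, 214 and 191 in control ES, 139 and 137 in FDX1-OE DMSO, and 217 and 209.8 in FDX1-OE ES. The change was nearly the same in both genotypes (log2 change 0.62, SE 0.057, adjusted p = 3.68e-05 in control cells, log2 change 0.62, SE 0.057, adjusted p = 1.1e-05 in FDX1-OE cells). TYMS shares 58.2% of its exon bases with ENOSF1 on the opposite strand, and the same limit holds. ENOSF1 lay between 5.13 and 5.5 FPKM in DMSO and between 6.09 and 6.72 in ES. It was called higher in both genotypes (log2 change 0.24, adjusted p = 0.0207, and 0.18, adjusted p = 0.0483). Its level comes from the same counting, and the part of ENOSF1 reads in the TYMS rise was not tested.

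TK1, the cytosolic thymidine kinase of the salvage route, was at 114 and 107 FPKM in control DMSO, 155 and 138 in control ES, 112 and 108 in FDX1-OE DMSO, and 165 and 172 in FDX1-OE ES, and it rose by 0.40 in control cells (SE 0.062, adjusted p = 0.000844) and by 0.61 in FDX1-OE cells (SE 0.062, adjusted p = 2.05e-05) on the log2 scale.

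The subunits of ribonucleotide reductase, which makes deoxyribonucleotides, moved together. RRM2, the small subunit and the one made in S phase, was at 118 and 111 FPKM in control DMSO, 173 and 171 in control ES, 119 and 124 in FDX1-OE DMSO, and 160.2 and 161 in FDX1-OE ES. RRM1, the large subunit, was at 75.6 and 73.9 FPKM in control DMSO, 105 and 106 in control ES, 76.5 and 78.2 in FDX1-OE DMSO, and 97.9 and 101 in FDX1-OE ES. Both rose in control cells (log2 change 0.58, SE 0.049, adjusted p = 2.38e-05 for RRM2, log2 change 0.49, SE 0.048, adjusted p = 5.79e-05 for RRM1) and in FDX1-OE cells (log2 change 0.40, SE 0.049, adjusted p = 7.58e-05 and log2 change 0.36, SE 0.048, adjusted p = 0.000119). The RRM2 to RRM1 ratio stayed between 1.51 and 1.65 over all 8 libraries. It was slightly higher in each ES library (1.59 to 1.65) than in each DMSO library (1.51 to 1.58).

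**Figure D2:**
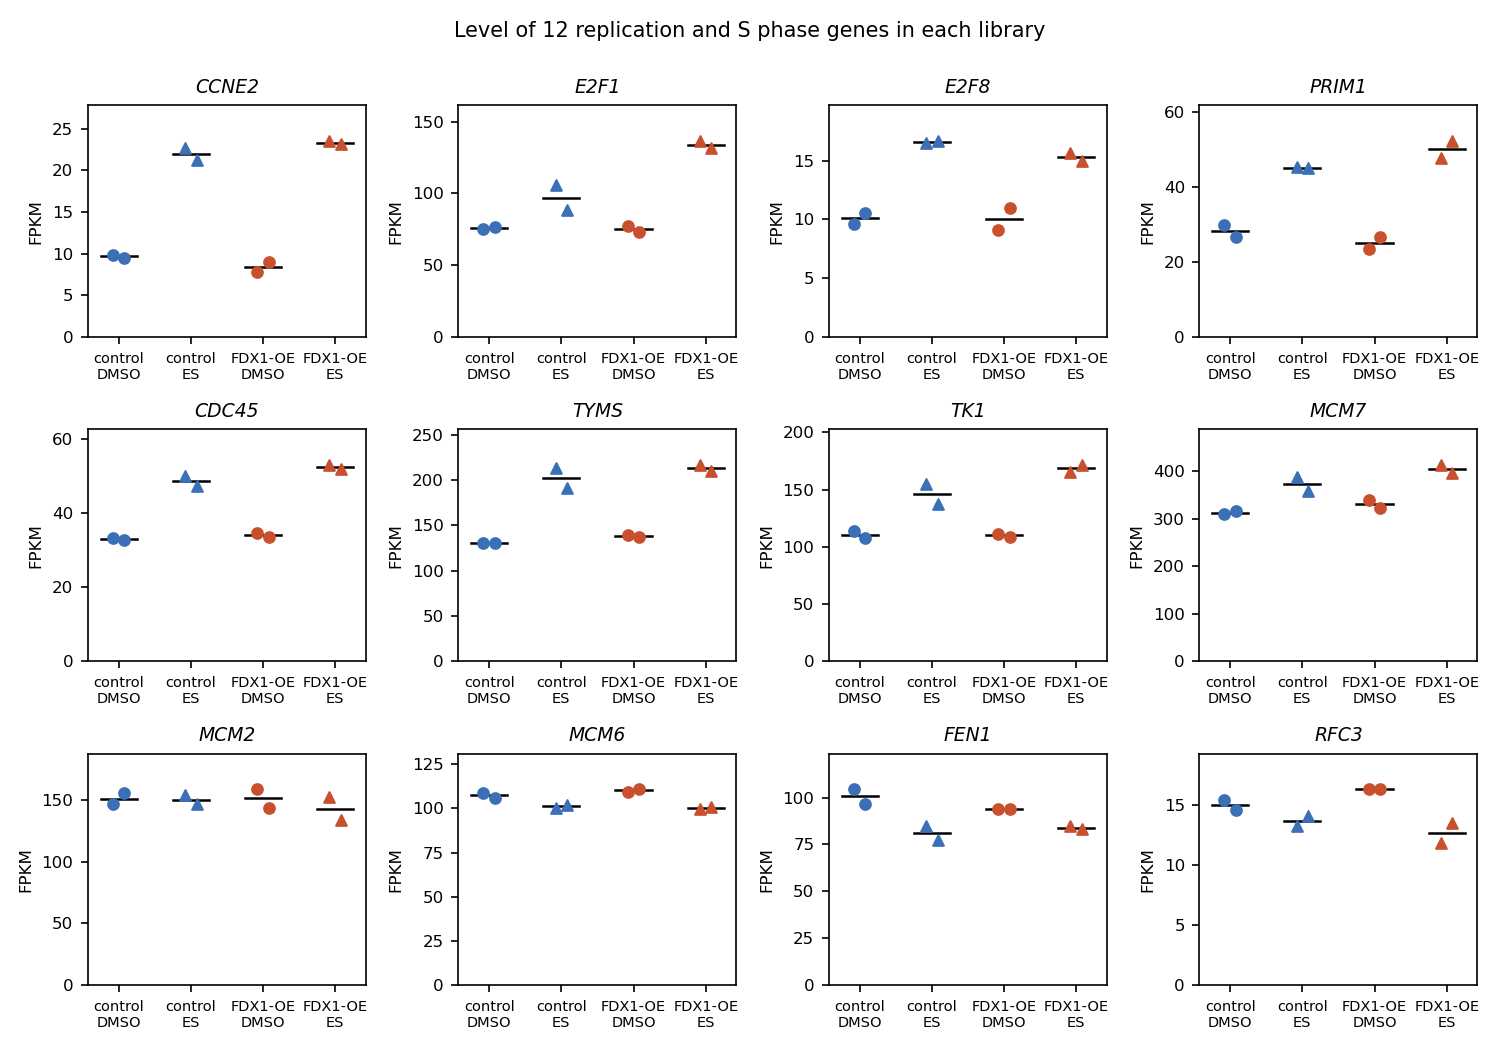
FPKM of 12 genes in each library (points; circles for DMSO, triangles for ES; blue for control and orange for FDX1-OE cells), with the mean of each group as a black line and axes that start at 0. CCNE2, E2F1, E2F8, PRIM1, CDC45, TYMS, TK1 and MCM7 are higher in every ES library than in every DMSO library, MCM2 overlaps, and MCM6, FEN1 and RFC3 are lower in every ES library.

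Origin licensing was mixed, with shares in FDX1-OE cells near those of all genes (37.0% higher and 19.2% lower, or 24.3% and 31.7% by RLE). Of 10 genes, 5 rose in control cells (2 by RLE) and none fell (MCM6 by RLE), while in FDX1-OE cells 4 rose and 1 fell (3 and 4 by RLE). ORC6, the smallest subunit of the origin recognition complex, was at 41.6 and 40.9 FPKM in control DMSO, 50.3 and 51 in control ES, 43.1 and 43.5 in FDX1-OE DMSO, and 52.3 and 57.8 in FDX1-OE ES. It rose in both genotypes by both scalings (log2 change 0.29, SE 0.058, adjusted p = 0.00312 in control cells, log2 change 0.34, SE 0.058, adjusted p = 0.000597 in FDX1-OE cells). ORC1, the subunit that recruits the others in G1, was at 26.1 and 27.4 FPKM in control DMSO, 28.9 and 28.6 in control ES, 26 and 28.9 in FDX1-OE DMSO, and 26.2 and 25.2 in FDX1-OE ES and passed in neither genotype (log2 change 0.10, adjusted p = 0.23, and -0.091, adjusted p = 0.239), though it was lower in FDX1-OE cells by RLE (-0.23, adjusted p = 0.009).

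CDC6 and CDT1 load the helicase. CDC6 was at 39.2 and 38.9 FPKM in control DMSO, 45.3 and 45.6 in control ES, 37.6 and 40.0 in FDX1-OE DMSO, and 49.3 and 52.1 in FDX1-OE ES (log2 change 0.21, SE 0.055, adjusted p = 0.0119 in control cells, not called by RLE at adjusted p = 0.0894, and log2 change 0.38, SE 0.055, adjusted p = 0.000221 in FDX1-OE cells). CDT1, which is destroyed once S phase begins, was at 60.7 and 61.4 FPKM in control DMSO, 75 and 65.3 in control ES, 64.6 and 65.2 in FDX1-OE DMSO, and 74.1 and 68.6 in FDX1-OE ES. It rose in control cells (log2 change 0.19, SE 0.068, adjusted p = 0.044) but not by RLE (0.10, adjusted p = 0.233), and in FDX1-OE cells it did not pass (log2 change 0.13, adjusted p = 0.114).

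The 6 subunits of the MCM ring, which are present in equal number in the complex, did not move alike. MCM7 was at 310.1 and 315 FPKM in control DMSO, 387 and 359 in control ES, 338 and 322 in FDX1-OE DMSO, and 413 and 397 in FDX1-OE ES. MCM7 rose in both genotypes by both scalings (log2 change 0.25, SE 0.052, adjusted p = 0.0039 in control cells, log2 change 0.29, SE 0.052, adjusted p = 0.000802 in FDX1-OE cells). MCM3, at 136 and 135 FPKM in control DMSO, 153 and 151 in control ES, 135 and 137 in FDX1-OE DMSO, and 156 and 149 in FDX1-OE ES, rose on FPKM (log2 change 0.17, SE 0.047, adjusted p = 0.0183 and log2 change 0.16, SE 0.047, adjusted p = 0.0133) and was not called in either genotype by RLE (adjusted p = 0.223 and 0.777).

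MCM6 was at 109 and 106 FPKM in control DMSO, 100.3 and 102 in control ES, 109 and 111 in FDX1-OE DMSO, and 99.6 and 101 in FDX1-OE ES. Each ES library lay below each DMSO library. MCM6 fell in FDX1-OE cells (log2 change -0.14, SE 0.046, adjusted p = 0.0281), while its change in control cells was -0.086 (SE 0.046, adjusted p = 0.164). By RLE it fell in both (-0.17, adjusted p = 0.0135, and -0.28, adjusted p = 0.000501). The FPKM call in FDX1-OE cells was lost when any of the 4 FDX1-OE libraries was left out (adjusted p = 0.0679 to 0.138).

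MCM2 was at 147 and 156 FPKM in control DMSO, 154 and 147 in control ES, 159 and 144 in FDX1-OE DMSO, and 152 and 134 in FDX1-OE ES, with ES and DMSO libraries overlapping (log2 change -0.008, SE 0.071, adjusted p = 0.937 and -0.084, SE 0.071, adjusted p = 0.334). MCM4 was at 203 and 205 FPKM in control DMSO, 206 and 209 in control ES, 203 and 203 in FDX1-OE DMSO, and 202 and 199 in FDX1-OE ES (log2 change 0.023, SE 0.043, adjusted p = 0.706, and -0.023, SE 0.043, adjusted p = 0.674). By RLE both were lower in FDX1-OE cells (MCM2 -0.23, adjusted p = 0.0206, MCM4 -0.17, adjusted p = 0.00832). MCM5, at 102 and 106 FPKM in control DMSO, 122 and 113 in control ES, 111 and 104 in FDX1-OE DMSO, and 123 and 112 in FDX1-OE ES, lay higher in every ES library than in every DMSO library and passed in neither genotype (log2 change 0.17, SE 0.063, adjusted p = 0.0525, and log2 change 0.12, SE 0.063, adjusted p = 0.123). A ratio of 2 genes within a library does not depend on scaling. The MCM7 to MCM6 ratio was 2.91 ± 0.094 in control DMSO and 3.69 ± 0.238 in control ES, and 3.0 ± 0.137 and 4.04 ± 0.151 in FDX1-OE DMSO and ES (SD, n = 2 each). It was higher in each ES library than in each DMSO library.

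Helicase activation rests on CDC45 and GINS. Of 6 genes, 4 rose in each genotype and none fell, while by RLE 2 rose in each and 2, GINS1 and MCM10, fell in FDX1-OE cells. The RLE counts in FDX1-OE cells were near the shares of all genes (24.3% higher and 31.7% lower). CDC45 was at 33.1 and 32.7 FPKM in control DMSO, 49.8 and 47.3 in control ES, 34.5 and 33.3 in FDX1-OE DMSO, and 52.9 and 51.8 in FDX1-OE ES. It rose in both genotypes (log2 change 0.55, SE 0.053, adjusted p = 5.25e-05 in control cells, log2 change 0.61, SE 0.053, adjusted p = 7.23e-06 in FDX1-OE cells), with every ES library above every DMSO library. MCM10, which helps the helicase to start, was called in neither genotype on FPKM (log2 change 0.040, adjusted p = 0.662, and -0.16, adjusted p = 0.0629) and was lower in FDX1-OE cells by RLE (-0.29, adjusted p = 0.00291).

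GINS is a complex of 4 different subunits. GINS4 was at 12.9 and 12.6 FPKM in control DMSO, 16.5 and 14.2 in control ES, 13.6 and 12.5 in FDX1-OE DMSO, and 17.9 and 17.5 in FDX1-OE ES (log2 change 0.25, SE 0.076, adjusted p = 0.0262, and log2 change 0.41, SE 0.076, adjusted p = 0.000996). GINS2 was at 35.2 and 33.7 FPKM in control DMSO, 43.9 and 42.7 in control ES, 33.8 and 34.6 in FDX1-OE DMSO, and 36.4 and 43.5 in FDX1-OE ES (log2 change 0.32, SE 0.076, adjusted p = 0.00761, and log2 change 0.21, SE 0.076, adjusted p = 0.0339). These rose on FPKM in both genotypes, and by RLE GINS2 kept its call in control cells only and GINS4 in FDX1-OE cells only.

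GINS3 was at 25.1 and 23.5 FPKM in control DMSO, 32 and 28.6 in control ES, 22.8 and 25.6 in FDX1-OE DMSO, and 27.3 and 31.7 in FDX1-OE ES and rose on FPKM (log2 change 0.30, SE 0.086, adjusted p = 0.018, and log2 change 0.27, SE 0.086, adjusted p = 0.0193), with no call by RLE (adjusted p = 0.0588 and 0.189). GINS1 was at 23.3 and 22.8 FPKM in control DMSO, 19.7 and 23.1 in control ES, 22.8 and 23.8 in FDX1-OE DMSO, and 21.9 and 22.6 in FDX1-OE ES and passed in neither genotype (log2 change -0.11, SE 0.072, adjusted p = 0.268, and log2 change -0.060, SE 0.072, adjusted p = 0.499). CDC45 per GINS1 was 1.43 ± 0.0066 in control DMSO and 2.29 ± 0.335 in control ES, and 1.46 ± 0.076 and 2.35 ± 0.087 in FDX1-OE cells (SD, n = 2 each).

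**Figure D3:**
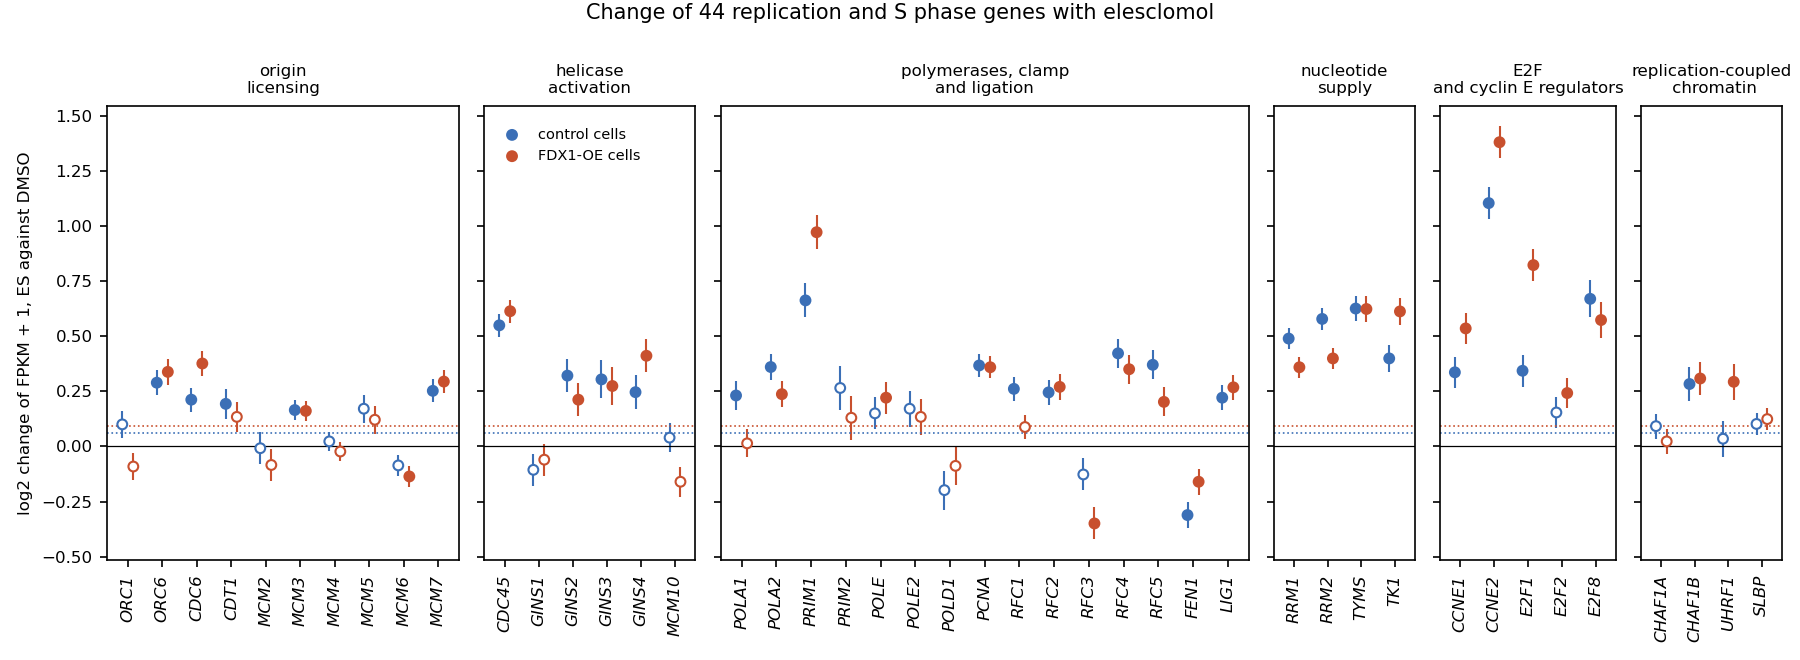
Log2 change of FPKM + 1 with ES for each of the 44 genes by step, in control (blue) and FDX1-OE cells (orange). Bars are standard errors of the fit, filled points are called at an adjusted p below 0.05, and dotted lines are the median of all genes tested (0.063 and 0.094); on RLE scaling MCM2, MCM4 and other points near 0 shift down and some are called lower.

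At the fork, 9 of 15 polymerase, clamp and ligation genes rose in control cells and 1 fell, against 6 and 3 by RLE, and in FDX1-OE cells 8 rose and 2 fell, against 3 and 3 by RLE. These RLE counts in FDX1-OE cells were no more than the shares of all genes (24.3% higher and 31.7% lower). PRIM1, the catalytic subunit of primase, was at 29.8 and 26.7 FPKM in control DMSO, 45.2 and 45.1 in control ES, 23.4 and 26.8 in FDX1-OE DMSO, and 47.8 and 52.3 in FDX1-OE ES. It rose by 0.66 (SE 0.077, adjusted p = 0.000168) in control cells and by 0.97 (SE 0.077, adjusted p = 4.39e-06) in FDX1-OE cells on the log2 scale, the second largest rise of the 44 genes there. PRIM2, the other primase subunit, was at 4.43 and 4.22 FPKM in control DMSO, 5.33 and 5.46 in control ES, 4.32 and 5.1 in FDX1-OE DMSO, and 4.69 and 5.83 in FDX1-OE ES, which overlapped between treatments (adjusted p = 0.0561 and 0.284). PRIM1 per PRIM2 was 6.52 ± 0.284 in control DMSO and 8.37 ± 0.158 in control ES, and 5.33 ± 0.118 and 9.59 ± 0.877 in FDX1-OE cells (SD, n = 2 each).

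The polymerase subunits had smaller log2 changes than PRIM1. POLA2, the regulatory subunit of polymerase alpha, rose in both genotypes (log2 change 0.36 and 0.24), the latter not by RLE (adjusted p = 0.168). POLA1, its catalytic subunit, rose in control cells only, by 0.23 (adjusted p = 0.0166), and had a change of 0.014 (adjusted p = 0.871) in FDX1-OE cells, although the difference between genotypes did not pass by limma (adjusted p = 0.192, against 0.0497 by voom), and RLE left no call for it. POLE, the leading-strand polymerase, rose in FDX1-OE cells (log2 change 0.22, SE 0.072, adjusted p = 0.0233) and not by RLE (adjusted p = 0.365). Its partner POLE2 and POLD1, the catalytic subunit of polymerase delta, passed in neither genotype, and POLD1 was lower in both by RLE (-0.29, adjusted p = 0.0254, and -0.23, adjusted p = 0.0448).

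PCNA rose in both genotypes by both scalings (log2 change 0.37, SE 0.051, and 0.36, SE 0.051), from between 279 and 304 FPKM in DMSO libraries to between 359.8 and 393 in ES libraries. Its loader, RFC, has 5 subunits, of which 4 rose in control cells. RFC4 was at 73.7 and 66.6 FPKM in control DMSO, 94.8 and 93.7 in control ES, 67.4 and 71.6 in FDX1-OE DMSO, and 84.9 and 92.8 in FDX1-OE ES. RFC4 alone of the 5 rose in both genotypes by both scalings (log2 change 0.42, SE 0.065, adjusted p = 0.000776, and log2 change 0.35, SE 0.065, adjusted p = 0.00103).

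RFC5 was at 24 and 26.1 FPKM in control DMSO, 31.6 and 33.8 in control ES, 25 and 26.5 in FDX1-OE DMSO, and 30.6 and 29 in FDX1-OE ES (log2 change 0.37, SE 0.065, adjusted p = 0.00163, and log2 change 0.20, SE 0.065, adjusted p = 0.0222). RFC2 was at 79.3 and 74.1 FPKM in control DMSO, 89 and 93 in control ES, 72.1 and 76.4 in FDX1-OE DMSO, and 87 and 92.6 in FDX1-OE ES (log2 change 0.24, SE 0.058, adjusted p = 0.00807, and log2 change 0.27, SE 0.058, adjusted p = 0.0026). RFC5 and RFC2 rose in both genotypes on FPKM, and by RLE RFC5 kept its call in control cells and RFC2 in neither. RFC1, the large subunit, was at 35.3 and 35.1 FPKM in control DMSO, 41.4 and 43.4 in control ES, 36 and 38.3 in FDX1-OE DMSO, and 40.1 and 38.9 in FDX1-OE ES and rose in control cells only (log2 change 0.26, SE 0.056, adjusted p = 0.00446, and log2 change 0.088, SE 0.056, adjusted p = 0.197), though the difference between genotypes did not pass (adjusted p = 0.227).

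RFC3 went the other way. It was at 15.4 and 14.6 FPKM in control DMSO, 13.2 and 14.1 in control ES, 16.4 and 16.3 in FDX1-OE DMSO, and 11.8 and 13.5 in FDX1-OE ES. Every ES library lay below every DMSO library. RFC3 fell in FDX1-OE cells (log2 change -0.35, SE 0.072, adjusted p = 0.00207), and in control cells its change was -0.13 (SE 0.072, adjusted p = 0.187), which was called by RLE (-0.21, adjusted p = 0.0396). The fall in FDX1-OE cells remained called without each library in turn (adjusted p = 0.00166 to 0.0212). RFC4 per RFC3 was 4.67 ± 0.145 in control DMSO, 6.91 ± 0.370 in control ES, 4.25 ± 0.183 in FDX1-OE DMSO and 7.04 ± 0.220 in FDX1-OE ES (SD, n = 2 each), with no overlap between treatments.

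FEN1, the nuclease that trims Okazaki fragments, was the only gene called lower in both genotypes on FPKM. It was at 105 and 96.7 FPKM in control DMSO, 84.7 and 77.4 in control ES, 93.9 and 94 in FDX1-OE DMSO, and 85 and 83 in FDX1-OE ES. The ES libraries lay below the DMSO libraries in each genotype (log2 change -0.31, SE 0.059, adjusted p = 0.00246 in control cells, and log2 change -0.16, SE 0.059, adjusted p = 0.0392 in FDX1-OE cells). The call in FDX1-OE cells was lost without any of the 4 FDX1-OE libraries (adjusted p = 0.0775 to 0.141) and without the filter on low values (0.0728). LIG1, the ligase that seals the fragments after FEN1, rose in both genotypes on FPKM (log2 change 0.22, SE 0.058, adjusted p = 0.0124, and log2 change 0.27, SE 0.058, adjusted p = 0.00255) and in neither by RLE (adjusted p = 0.0869 and 0.0825).

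Of 4 genes of replication-coupled chromatin, 1 rose in control cells and 2 in FDX1-OE cells, beside 25.5% and 37.0% of all genes tested, and none was called by RLE. CHAF1B, a subunit of the histone chaperone CAF-1, was at 8.83 and 9.44 FPKM in control DMSO, 11.5 and 11.2 in control ES, 8.5 and 9.79 in FDX1-OE DMSO, and 11.2 and 11.8 in FDX1-OE ES (log2 change 0.28, SE 0.076, adjusted p = 0.014, and log2 change 0.31, SE 0.076, adjusted p = 0.00554). Its call was lost in control cells when replicate 1 of control DMSO (adjusted p = 0.0892) or of control ES (0.0693) was left out, and in FDX1-OE cells without FDX1-OE DMSO replicate 1 (0.062). CHAF1A, the large subunit of CAF-1, was at 56.6 and 61 FPKM in control DMSO, 63.5 and 61.9 in control ES, 60.4 and 58.8 in FDX1-OE DMSO, and 62.3 and 58.8 in FDX1-OE ES and passed in neither genotype (log2 change 0.092, SE 0.056, adjusted p = 0.22, and log2 change 0.023, SE 0.056, adjusted p = 0.748).

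UHRF1, which brings DNA methylation to newly copied strands, was at 57.9 and 59.9 FPKM in control DMSO, 63.5 and 57.4 in control ES, 59.1 and 55.9 in FDX1-OE DMSO, and 77.4 and 64.4 in FDX1-OE ES. It rose in FDX1-OE cells (log2 change 0.29, SE 0.083, adjusted p = 0.0114) and had a change of 0.035 (adjusted p = 0.757) in control cells, but the difference between genotypes did not pass (adjusted p = 0.226). SLBP, which binds histone mRNA in S phase, lay higher in every ES library than in every DMSO library, at 128 to 135.0 against 119.9 to 126 FPKM, and passed in neither genotype (adjusted p = 0.129 and 0.0538).

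Without ES, FDX1 overexpression went with no called change in the set. In DMSO, limma called 0 of the 44 genes higher and 0 lower between FDX1-OE and control cells, beside 0.428% and 0.0816% of all genes tested. At an unadjusted p below 0.05 there were 1 higher and 1 lower, POLA1 and CCNE2, and a fit to recovered reads (voom) also called 0. The log2 differences ran from -0.19 for CCNE2 (SE 0.073, adjusted p = 0.562) to 0.15 for POLA1 (SE 0.064, adjusted p = 0.62), with a median of 0.018 over the set. The largest differences of the other steps were 0.086 for CDT1, 0.043 for CDC45, -0.17 for PRIM1, 0.082 for RRM2 and -0.034 for UHRF1, with adjusted p between 0.562 and 0.983 for these and CCNE2.

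In ES, FDX1-OE and control cells differed in few of these genes. Of the 44 genes 3 were higher in FDX1-OE cells, beside 13.6% of all genes tested, and 0 were lower by limma, beside 7.78%, with 3 lower at an unadjusted p below 0.05. The genes were E2F1 (log2 change 0.47, SE 0.073, adjusted p = 0.00217), CCNE1 (log2 change 0.22, SE 0.071, adjusted p = 0.0465) and TK1 (log2 change 0.20, SE 0.062, adjusted p = 0.0401). E2F1 kept its call under every alternative run. CCNE1 was lost without either FDX1-OE ES library, either control DMSO library or control ES replicate 2 (adjusted p = 0.0604 to 0.262), and TK1 without any of the 4 FDX1-OE libraries or control ES replicate 2 (0.0555 to 0.282). By RLE 1 gene, E2F1, was called higher and 4 were lower, ORC1, MCM10, POLA2 and RRM2, and by voom 1 was higher and 5 lower. In the other steps the largest differences were PRIM1 at 0.14 (adjusted p = 0.209), GINS4 at 0.20 (0.0901), UHRF1 at 0.22 (0.0791) and ORC1 at -0.16 (0.102) on the log2 scale. GINS4 was called without control ES replicate 1 (adjusted p = 0.0293) and UHRF1 without FDX1-OE ES replicate 2 (0.0176).

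Whether FDX1-OE changed the response to ES was tested by the interaction, which is the ES change in FDX1-OE cells less the one in control cells. It called 1 of 44 genes with a larger change in FDX1-OE cells, beside 3.25% of all genes tested, and 0 by limma with a smaller one, beside 1.05%, with 4 and 2 at an unadjusted p below 0.05 and 1 and 1 by voom. The gene was E2F1, whose ES response was larger by 0.48 on the log2 scale (SE 0.10, adjusted p = 0.0331, and 0.42, adjusted p = 0.0423 by RLE). The call held without control ES replicate 1 (log2 0.60, adjusted p = 0.00573) and was lost without any other of the 8 libraries (adjusted p = 0.0595 to 0.107) and without the filter on low values (0.12). E2F4, a repressor-type member of the family and no member of the set, was at 115 and 123 FPKM in control DMSO, 109.9 and 112 in control ES, 118 and 117 in FDX1-OE DMSO, and 91.8 and 93.8 in FDX1-OE ES. E2F1 per E2F4 was thus 0.640 ± 0.022 in control DMSO and 0.640 ± 0.021 in FDX1-OE DMSO, 0.876 ± 0.119 in control ES and 1.44 ± 0.063 in FDX1-OE ES (SD, n = 2 each). The next largest interactions, in PRIM1 (log2 0.31, adjusted p = 0.128) and CCNE2 (0.28, 0.146), did not pass.

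Both ES responses, which share no library, ran alongside each other over the 44 genes, with a Pearson correlation of 0.879 across genes, beside 0.84 over all genes tested. Genes are not independent replicates, and the values share the scaling of the same files. The absolute change was larger in FDX1-OE cells for 22 of the 44 genes. Genes that rose in both genotypes on FPKM numbered 24, with CDT1, POLA1 and RFC1 called in control cells only and E2F2, POLE and UHRF1 in FDX1-OE cells only. By limma the interaction passed for none of these 6, and by voom it was called for POLA1 (log2 -0.29, adjusted p = 0.0497).

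**Figure D4:**
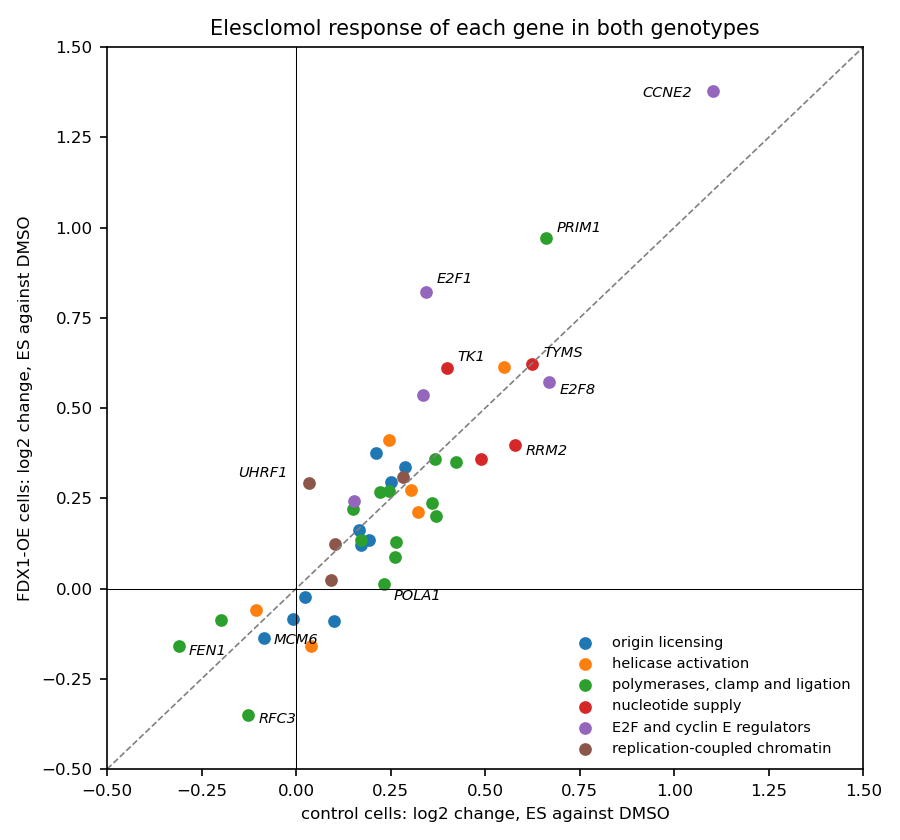
Log2 change with ES of each of the 44 genes in control cells (horizontal) and in FDX1-OE cells (vertical), on FPKM + 1, coloured by step; the dashed line marks equal change. CCNE2, PRIM1, E2F1 and TK1 lie above the line, RRM2 and POLA1 below it, and only E2F1 passed limma's test of the difference.

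E2F words stood both in promoters of genes that rose and in those of other genes. Of the 24 genes higher in both genotypes on FPKM, 21 had a promoter entry, and 10 of these held an E2F word (47.6%). Of the other 18 genes with an entry, 10 held one (55.6%). These other genes are not all without a rise. Among those with a word, CDT1 and POLA1 were called higher in control cells only, and E2F2, POLE and UHRF1 in FDX1-OE cells only. A link between E2F words and the ES response was not tested. CDC45, PRIM1, TK1, CCNE1, RRM1 and RRM2 rose and held none of the 4 words in this window, while MCM2 and MCM6, which did not rise, held them. RFC3, which fell in FDX1-OE cells, and TYMS, which rose, both hold the word shown above. No match says only that these letters are absent from this window.

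Other genes of replication and the E2F network, 83 in all with 81 tested, had smaller median changes. In control cells 35 rose and 3 fell (24 and 8 by RLE), with a median log2 change of 0.13, and in FDX1-OE cells 36 rose and 8 fell (27 and 24 by RLE), with a median of 0.094, equal to that of all genes. Of all genes tested, 25.5% rose and 12.9% fell in control cells (17.3% and 21.7% by RLE). In FDX1-OE cells 37.0% of all genes rose and 19.2% fell (24.3% and 31.7% by RLE). The 24 genes lower by RLE there were near that share. Between genotypes in DMSO, limma called 0 of these genes higher and 0 lower (3 and 1 at an unadjusted p below 0.05, 1 and 0 by voom), and in ES 9 were higher and 7 lower in FDX1-OE cells, beside 13.6% and 7.78% of all genes tested. That balance turned with scaling and method, to 6 higher and 9 lower by RLE and 5 higher and 13 lower by voom. Fork and checkpoint genes were the most numerous, with 15 of 25 higher in each genotype (12 and 13 by RLE, with 0 and 7 lower). Of 8 origin firing genes, 4 rose in control and 3 in FDX1-OE cells (3 and 3 by RLE, with 2 lower in the latter), which in FDX1-OE cells is a share near the 37.0% of all genes. Among them were CDC7, the kinase that activates MCM (0.44 and 0.44), and CDK2, the partner of cyclin E (0.38 and 0.43). Of 11 tested nucleotide supply genes beyond the 4 above, 3 rose in control and 5 in FDX1-OE cells (2 and 3 by RLE, where 2 and 4 fell), shares near those of all genes. Of 8 further licensing genes 2 rose in each (1 and 1 by RLE), no more than the share of all genes. GMNN, geminin, the inhibitor of CDT1, passed in neither genotype (log2 change 0.077 and -0.011). Of 20 tested E2F, RB and cyclin genes, 7 rose and 0 fell in control cells (4 and 2 by RLE). In FDX1-OE cells 8 of them rose and 3 fell (5 and 5 by RLE). Of 9 further genes of replication-coupled chromatin, 4 rose and 2 fell in control cells (2 and 3 by RLE). In FDX1-OE cells 3 rose and 2 fell (2 and 4 by RLE). The shares of these steps that rose in FDX1-OE cells were near that of all genes.

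The largest rises of that list in control cells, on log2(FPKM + 1), were EXO1, a nuclease of repair and replication, SAMHD1, which degrades deoxyribonucleotides, and E2F7, the closest relative of E2F8. This scale understates changes of low genes, among them CDKN1A, at a mean of 0.334 FPKM in control DMSO and 0.96 in control ES. SAMHD1 was at 28.1 and 26.7 FPKM in control DMSO, 45.4 and 41.8 in control ES, 27.7 and 31.7 in FDX1-OE DMSO, and 50.9 and 48.1 in FDX1-OE ES, so that a gene of nucleotide breakdown rose beside the genes of supply (log2 change 0.65, SE 0.073, adjusted p = 0.00013, and log2 change 0.72, SE 0.073, adjusted p = 1.98e-05). E2F7 was at 2.28 and 2.6 FPKM in control DMSO, 4.17 and 4.45 in control ES, 2.41 and 2.56 in FDX1-OE DMSO, and 4.88 and 4.89 in FDX1-OE ES (log2 change 0.63, SE 0.080, adjusted p = 0.000279, and log2 change 0.76, SE 0.080, adjusted p = 2.57e-05). EXO1 was at 10.1 and 10.3 FPKM in control DMSO, 16.7 and 17.8 in control ES, 9.6 and 10.4 in FDX1-OE DMSO, and 14.1 and 14.5 in FDX1-OE ES (log2 change 0.71, SE 0.066, adjusted p = 4.01e-05, and log2 change 0.47, SE 0.066, adjusted p = 0.00015). The largest falls there were CAD, which begins pyrimidine synthesis (log2 change -0.23, SE 0.072, adjusted p = 0.0287), and the histone chaperones ASF1A (log2 change -0.23, SE 0.083, adjusted p = 0.0491) and NASP (log2 change -0.19, SE 0.053, adjusted p = 0.0168). The control-cell falls were each lost without 1 or more libraries: CAD without replicate 2 of control DMSO (adjusted p = 0.166) or of control ES (0.163), NASP without replicate 1 of control DMSO (0.104) or of control ES (0.114), and ASF1A without any of the 4 DMSO libraries or control ES replicate 1 (up to 0.276).

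In FDX1-OE cells the largest rises of the list on the same scale were CDKN1A, POLE4 and POLD4. CDKN1A, the cyclin-dependent kinase inhibitor p21, was at 0.382 and 0.287 FPKM in control DMSO, 0.813 and 1.11 in control ES, 0.387 and 0.341 in FDX1-OE DMSO, and 2.53 and 2.6 in FDX1-OE ES, a low level in every library (log2 change 1.39, SE 0.10, adjusted p = 2.54e-06). It lay below 1 FPKM in every DMSO library and passed the filter for testing only through ES libraries, where it was higher. Its call is thus not independent of that selection. POLE4, an accessory subunit of polymerase epsilon, was at 31.3 and 30.8 FPKM in control DMSO, 43.9 and 40.6 in control ES, 26.1 and 25.1 in FDX1-OE DMSO, and 50.4 and 48.9 in FDX1-OE ES (log2 change 0.93, SE 0.057, adjusted p = 1.03e-06). POLD4, the small subunit of polymerase delta, was at 54.1 and 54.6 FPKM in control DMSO, 77.1 and 66.5 in control ES, 55.3 and 48.6 in FDX1-OE DMSO, and 94.8 and 95.8 in FDX1-OE ES (log2 change 0.87, SE 0.076, adjusted p = 8.24e-06). The largest falls were NASP (log2 change -0.39, SE 0.053, adjusted p = 0.00013), CCNA2, the cyclin A that follows cyclin E in S phase (log2 change -0.37, SE 0.061, adjusted p = 0.000487), and ORC5 (log2 change -0.36, SE 0.068, adjusted p = 0.00109). CCNA2 was at 82.9 and 81.2 FPKM in control DMSO, 78.8 and 87.1 in control ES, 86.5 and 93.5 in FDX1-OE DMSO, and 68.5 and 70.3 in FDX1-OE ES, so that in FDX1-OE ES both libraries lay below the other 6, while CCNE1 and CCNE2 were higher in both FDX1-OE ES libraries than in the other 6.

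Genes of mitosis did not follow the replication genes. Of 30, 4 rose and 6 fell in control cells (3 and 8 by RLE), and 2 rose and 13 fell in FDX1-OE cells (0 and 23 by RLE). Of all genes tested, 25.5% rose and 12.9% fell in control cells (17.3% and 21.7% by RLE). In FDX1-OE cells 37.0% of all genes rose and 19.2% fell (24.3% and 31.7% by RLE). The share of mitosis genes that fell in control cells was thus near that of all genes by RLE. Their median log2 change was -0.007 in control cells and -0.14 in FDX1-OE cells, where that of the 44 replication genes was 0.25 and 0.24. The largest changes were in CCNB1, the mitotic cyclin, at 108 and 98.1 FPKM in control DMSO, 72.2 and 73.7 in control ES, 104 and 99.8 in FDX1-OE DMSO, and 64 and 68.1 in FDX1-OE ES (log2 change -0.49, SE 0.060, adjusted p = 0.000207, and log2 change -0.62, SE 0.060, adjusted p = 1.54e-05), and in the kinase PLK1, at 170.3 and 178 FPKM in control DMSO, 135 and 142 in control ES, 182 and 178 in FDX1-OE DMSO, and 105 and 109 in FDX1-OE ES (log2 change -0.33, SE 0.050, adjusted p = 0.000727, and log2 change -0.74, SE 0.050, adjusted p = 1.59e-06). CDC20, a mitotic activator of the anaphase-promoting complex, was the second largest in control cells (log2 change -0.45). Between genotypes in ES, 0 mitosis genes were higher and 8 lower in FDX1-OE cells, beside 13.6% and 7.78% of all genes tested. By RLE these were 0 and 16, beside 978 and 1273 of all 9805 genes tested. The interaction called 0 higher and 2 lower, beside 3.25% and 1.05% of all genes tested.

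**Figure D5:**
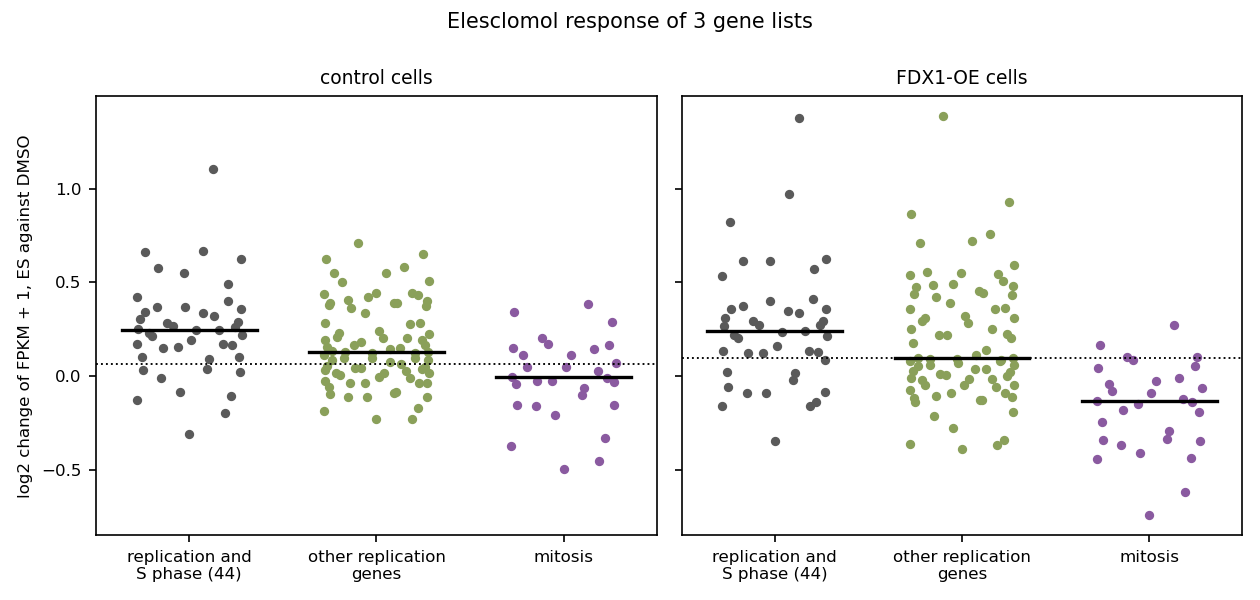
Log2 change with ES on FPKM + 1 of the 44 replication and S phase genes, of 81 other replication genes and of 30 mitosis genes (points), in control cells (left) and FDX1-OE cells (right); black lines are medians and the dotted line is the median of all genes tested. Medians of the 44 genes are 0.25 and 0.24, and those of the mitosis genes -0.007 and -0.14; by RLE all points shift down by about the same amount in each panel.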

How the data were processed

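The submitters' processing notes name the build hg19 and the tools HTSeq, HISAT2 and R 3.2.0. What each did, the annotation and the strand setting were not given in the sources used here. Deposited values are FPKM made by the authors, read as such from the values, since the file headers state no unit. A gene's values were whole multiples of a step, which gave whole reads for 100% of 15597 genes within 0.02 read. These reads gave the depths and 1 alternative test.

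Group differences were tested, two-sided, with limma 3.58.1 (R 4.3.3). Means of the 4 groups were fitted to log2(FPKM + 1) of the 8 libraries (4 residual and 6.6 prior degrees of freedom), with a mean trend and Benjamini-Hochberg adjustment over the 9805 genes that reached 1 FPKM in 2 libraries or more. Fold changes on this scale understate those of low genes. With 2 libraries a group, exact permutation p-values start at 0.33, and none were used. The code was tested on simulated data.

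The genes, lists and motifs were chosen with earlier results of these data known, so no list test was made. Named with full values were, in each step, the gene with the largest change in each pairwise comparison, the 5 largest called rises and falls over the set, every gene called in the interaction and the subunits of the MCM, GINS, RFC, CAF-1 and ribonucleotide reductase complexes, and in other lists the 3 (mitosis, 2) largest. Alternatives were pseudocounts of 0.1 and 5, RLE scaling, no filter or a mean of at least 5 FPKM, voom on recovered reads, a fit to the 4 libraries compared, a replicate block, and each library left out. Sequences are from RefSeq (GRCh38.p14), and no coordinates were moved between builds. CD2, CD8A, GNLY, S100A8 and S100A9 were not analysed here.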

Additional observations from a re-analysis of the deposited data

Results flagged for a closer look

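Given here are genes of the set and other replication genes for which the test of the interaction itself passed. Their ES response in FDX1-OE cells thus differed from that in control cells. E2F1 responded more strongly in FDX1-OE cells, by 0.48 on the log2 scale (adjusted p = 0.0331). Of the 81 other genes of replication and the E2F network that were tested, 4 were called higher in the interaction and 1 lower. These shares were near the 3.25% and 1.05% of all genes tested. By RLE 4 were higher and 3 lower, and by voom 3 and 5. Of the 30 mitosis genes, which are not named here, 0 were called higher in the interaction and 2 lower (5 lower by RLE, 8 by voom). CDKN1A, the inhibitor p21, responded more strongly by 0.835 (adjusted p = 0.013), at 0.287 to 0.387 FPKM in DMSO and 0.813 to 2.60 in ES. It is below 1 FPKM in 5 of the 8 libraries, among them every DMSO library, and passed the filter for testing only through ES libraries. Its call was lost with a pseudocount of 0.1 (1.24, adjusted p = 0.0596) and by voom (1.24, adjusted p = 0.1). POLE4 did so by 0.495 (adjusted p = 0.0106), with a lower start in FDX1-OE DMSO libraries (25.1 and 26.1 FPKM against 30.8 and 31.3). POLD4 did so by 0.475 (adjusted p = 0.0392), and CDKN2C, the inhibitor p18, at 45.7 and 45.8 FPKM in control DMSO, 52.4 and 48.1 in control ES, 40.7 and 44.6 in FDX1-OE DMSO, and 64.1 and 65.5 in FDX1-OE ES, by 0.462 (adjusted p = 0.0188). CCNA2, cyclin A2, differed by -0.383 (adjusted p = 0.0384), falling in FDX1-OE cells and not in control cells. Without the filter on low values the calls of E2F1 (adjusted p = 0.12), CCNA2 (0.102), CDKN2C (0.0739) and POLD4 (0.133) were lost, and that of POLD4 also with a pseudocount of 0.1 (0.0506). Each of the 6 calls named here was lost without 1 library or more. E2F1 and CCNA2 were lost without any library but control ES replicate 1 (adjusted p up to 0.107 and 0.134). POLD4 was lost without any but control ES replicate 1 or FDX1-OE DMSO replicate 1 (up to 0.127), and CDKN2C without any but control ES replicate 1 or FDX1-OE DMSO replicate 2 (up to 0.078). CDKN1A was lost without either FDX1-OE ES library or control DMSO replicate 1 (up to 0.0597), and POLE4 without FDX1-OE ES replicate 1 (0.0523).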

How the results depend on the processing

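With RLE scaling, control cells had 4 genes lower with ES (median change 0.16), FDX1-OE cells 16 higher and 9 lower (median 0.099), and FDX1-OE against control cells in ES 1 higher and 4 lower, with a median of -0.053 in place of 0.001; the median of the interaction was -0.061. With voom on recovered reads these were 5 lower (0.159), 17 higher and 9 lower (0.096), 1 higher and 5 lower (-0.056), and -0.061, with 1 gene lower in the interaction. A pseudocount of 5 gave a median of 0.20 in control cells. Without the filter, 1 gene was higher in FDX1-OE than in control cells under ES and the interaction called 0, and the fit to the 4 libraries compared left 1 in the former. The cause of these changes was not tested.

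With single libraries left out, control cells had 18 to 29 genes higher (18 without control DMSO replicate 2) and 1 to 2 lower. FDX1-OE cells had 20 to 27 higher and 1 to 3 lower, with a median of 0.206 to 0.249. FDX1-OE against control cells in ES had 1 to 4 higher and 0 to 1 lower, and the interaction 0 to 1 higher. UHRF1's difference in DMSO, -0.034, ran from -0.074 to 0.005, the latter without FDX1-OE DMSO replicate 2. Of 791 values of named genes under an alternative, 704 kept their direction and side of the threshold, 81 lost the call and 5 gained one.

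Deviations of same-numbered libraries from their group means had correlations of -0.18 to 0.181 over the 6 pairs of groups. They were negative in the pairs with control DMSO and positive in the others. With 2 libraries a group, these values cannot decide whether the numbers pair the libraries. With a replicate block, 29 genes were higher and 1 lower in control cells, 27 and 3 in FDX1-OE cells, 4 higher in FDX1-OE than in control cells under ES, and 1 in the interaction. Depth did not limit any gene of the set, and 2 libraries per group did limit the tests.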
